A study of Mus musculus with 20 samples.

Results

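Pups labelled as Creld1 knockouts in heart muscle were compared with wild-type littermates 3 days after birth. Under a fit that paired littermates, a small set of genes differed the same way in atria and ventricles. Creld1 itself was not among the genes that passed the adjusted threshold. The comparison used 12 of the 20 libraries of the series, the atria and the ventricles of 6 pups at postnatal day 3 (P3). The log2(signal + 1) values of a pup's 2 tissues were averaged, knockout pups 1 to 3 were compared with wild-type pups 1 to 3 of the same number, and genes with the same direction of change in both tissues were kept. Of 26440 genes in the table, 16825 had a signal of at least 10 in at least 3 of the 12 libraries and were tested.

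All pups were of the C57BL/6N strain. The 3 knockout pups carried the genotype labelled MyHC-Creld1 KO, described by the submitters as specific to the myocardium, and the 3 controls were labelled wild-type. The promoter that drives the deletion, the floxed allele and the alleles of the controls are not stated in the labels. Only myocardial cells are described as losing the gene, so the other cells of each tissue keep it by design. Pups with the same number came from the same litter and preparation date, so there were 3 litters, each with 1 knockout and 1 wild-type pup. The series also holds 8 whole hearts at the embryonic stage E13.5, 4 per genotype, which were used here only to set the P3 genes beside an earlier stage. RNA was sequenced by the SMART-Seq2 protocol, which makes cDNA from polyadenylated transcripts of small samples.

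CRELD1 is a membrane protein of the endoplasmic reticulum with epidermal growth factor-like domains, and its gene is linked to septal defects of the heart. Around birth the heart normally switches from glucose and lactate toward fatty acids as fuel and turns down a fetal programme of natriuretic peptides and muscle isoforms. Heart muscle under mechanical load is known to turn that programme on again, together with matrix proteins of remodelling tissue.

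Estimated totals ran from 5138360 to 20669494 counts per P3 library, and 18357 to 23457 genes had a signal above 0. In atria they were 16998426, 10507691 and 10339254 in knockout pups 1 to 3 and 15885622, 5138360 and 5902444 in wild-type pups 1 to 3. In ventricles they were 12735281, 20669494 and 15695166 in the knockout and 13956255, 9471698 and 6366734 in the wild-type. The knockout library was thus the deeper of each pair except ventricular pair 1. The targeted gene Creld1 had a signal of 23.1, 26.6 and 82.4 in the atria of knockout pups 1 to 3 and 105, 21.6 and 146 in those of wild-type pups 1 to 3. In the ventricles its signal was 19.9, 59.3 and 51.9 in the knockout and 62.2, 59.7 and 129.6 in the wild-type. The difference of the pup means was -0.93 on the log2 scale (SE 0.46, adjusted p = 0.505, limma). It was -1.46 without pair 2 (adjusted p = 0.354), -0.46 without pair 1 (adjusted p = 0.893) and -0.86 without pair 3 (adjusted p = 0.756). The groups overlapped in atria, where knockout pup 2 was not lower than its littermate, and in ventricles that pup lay just below its littermate. These reads cover the whole gene, and which exons the deletion removes is not given here. The atrial library labelled wild-type pup 2 stood apart, since its signal of Myl2, the ventricular myosin light chain, was 9242 against 40.8 and 21.7 in the other wild-type atria. That library also had a Xist signal of 2876, against 74.9 in the ventricles labelled as the same pup, so the 2 libraries do not match in Xist as those of 1 animal would. Knockout pup 1, with Xist at 20.4 in atria and 21.6 in ventricles, lacked the Xist level of its littermate, which was 3596 and 2791. Mitochondrially encoded transcripts made up 10.4% of the signal in the atria of wild-type pup 3 and 3.53% in those of knockout pup 3, against 22.5 to 31.2% in the other atria and 36.2 to 41.1% in ventricles. The atria of wild-type pup 3 also held a summed signal of 3757 over 8 adipocyte markers, against at most 313 in the other atria. The part of these features in the results was not tested, and the calls that held without pair 2 are named below.

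Under limma with litter number as a block, 13 genes rose and 7 fell in knockout pup means with the same direction in both tissues. These 20 genes are 0.119% of the 16825 tested (0.0773% for the rise and 0.0416% for the fall), at a Benjamini-Hochberg adjusted p under 0.05. The genes that rose are Nppa, Nppb, Casq1, Sost, Thbs4, Tnc, Eln, Acta2, Cnn1, Hba-a1, Hba-a2, Hbb-bs and Gm2897. The genes that fell are Lrrc14b, Acss1, Paqr9, Mb, Lum, Dcn and Atp2a2. In 17 of the 20 all 6 paired differences (3 pairs in 2 tissues) had 1 sign (5.99% of all tested genes), the exceptions being Hbb-bs, Dcn and Gm2897. In 17 the pup means of the genotypes did not overlap (9.9% of all genes). The calls were made on these same differences, so both counts are descriptions and lend the calls no further support.

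The calls rest on the litter pairing and on the variance trend: without the block 1 gene was called (Lrrc14b, adjusted p = 0.0284; 0.00594% of genes), although 19 of the 20 kept an unadjusted p under 0.05, against 4.74% of all genes. Without the trend none was called, while all 20 kept an unadjusted p under 0.05, against 7.32% of all genes. The 20 were picked on these same pup means, so their unadjusted p values in these fits lend the calls no further support. Without pair 2, which holds the doubtful wild-type library, 10 genes were called (0.0594%) and all were among the 20: Nppa, Nppb, Casq1, Sost, Cnn1, Acta2, Eln, Acss1, Mb and Lrrc14b. Without pair 1 the count was 134 (0.796%), of which 18 were among the 20, and without pair 3 it was 19 (0.113%), of which 5 were among the 20.

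**Figure D1:**
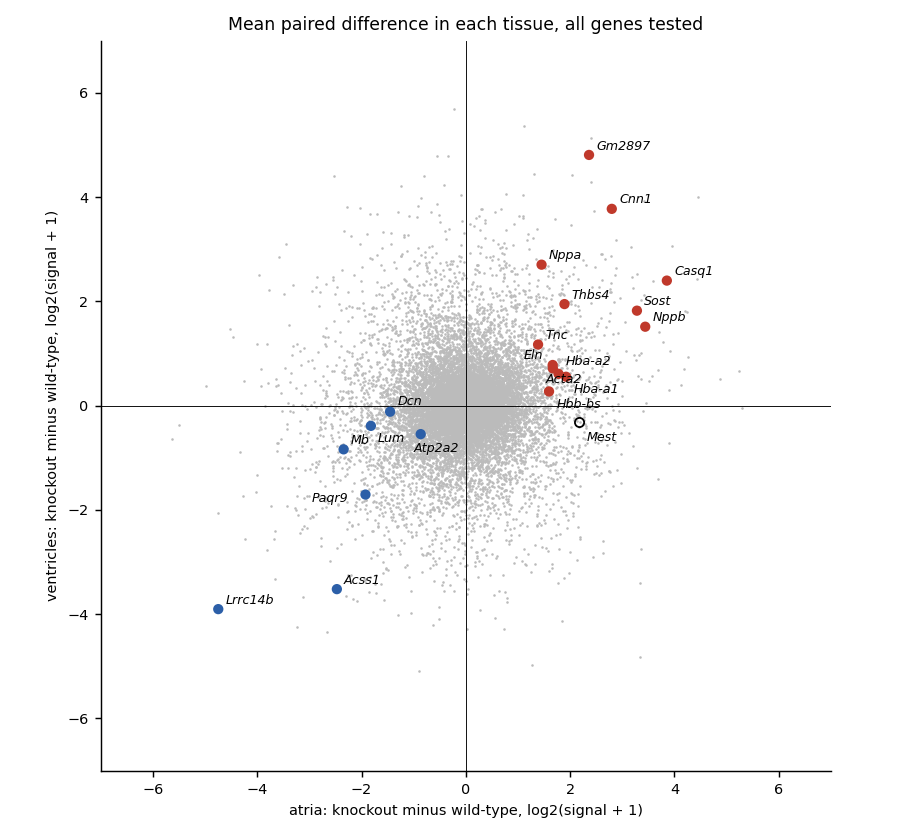
Mean paired difference, knockout minus wild-type, of log2(signal + 1) in atria (horizontal) and ventricles (vertical) for the 16825 genes tested (grey). Red points are the 13 genes that rose and blue points the 7 that fell in both tissues; the open circle is Mest, called on pup means with opposite directions in the 2 tissues.

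Both natriuretic peptide genes rose, and Nppa had the smallest p-value of all genes tested in the paired fit. Nppa encodes atrial natriuretic peptide, a hormone that lowers blood volume and pressure. Its signal was 98476, 95071 and 379853 in the atria of knockout pups 1 to 3 and 45736, 32879.7 and 115762 in the wild-type atria. In the ventricles it was 11104, 2713 and 31208 in the knockout and 971, 645 and 5411 in the wild-type. Each knockout library exceeded its littermate's, while wild-type pup 3 was above knockout pups 1 and 2 in atria and above knockout pup 2 in ventricles, so the groups overlapped in each tissue. The paired difference of the pup means was 2.08 (SE 0.12, limma adjusted p = 0.000195), made of 1.45 in atria and 2.70 in ventricles. Without the litter block the limma p for Nppa was 0.0154 unadjusted and 0.893 adjusted. Its pup means overlapped, with knockout pup 2 at 13.97 and wild-type pup 3 at 14.61 on the log2 scale.

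Nppb encodes brain natriuretic peptide, which is released from stretched heart muscle. Its signal was 2769, 5153 and 2798 in knockout atria and 276, 626 and 179 in wild-type atria, with no overlap. In ventricles it was 1411, 765 and 3922 in the knockout and 559, 719.7 and 450.4 in the wild-type, where knockout pup 2 stood close to its littermate. The difference of the pup means was 2.48 (SE 0.29, adjusted p = 0.0217), with 3.44 in atria and 1.51 in ventricles. In atria Nppb was also called by itself (adjusted p = 0.00645).

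Both genes lie side by side on chromosome 4 in GRCm38, Nppb at 147985788 to 147987205 and Nppa at 148000722 to 148002079, each with 3 exons. An annotated antisense gene, Gm13054, overlaps exons of Nppa on the other strand, and no source says whether strand was used in counting. The 150 bases upstream of each RefSeq start are shown because the 2 genes moved together in all 6 pairs. Capitals mark a GATA-factor motif (GATA after an A or a T and before an A or a G, searched on both strands) and the TATA motif TATAAA on the gene's strand. The Nppa window is chr4:148000572-148000721 and the Nppb window chr4:147985750-147985899, both on the plus strand of GRCm38.p6. For Nppb the RefSeq start used lies downstream of the GENCODE start given above. Most of its window, with the marked motifs, therefore lies inside the GENCODE span of the gene.
Nppa: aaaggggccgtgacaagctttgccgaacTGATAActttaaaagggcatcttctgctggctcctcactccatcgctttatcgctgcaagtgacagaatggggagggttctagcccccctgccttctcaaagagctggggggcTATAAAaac
Nppb: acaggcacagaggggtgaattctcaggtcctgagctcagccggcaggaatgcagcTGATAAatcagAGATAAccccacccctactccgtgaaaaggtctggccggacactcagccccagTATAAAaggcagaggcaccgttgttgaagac
The GATA motif begins 122 bases before the RefSeq start of Nppa, and 95 and 84 bases before that of Nppb. Over 32851 RefSeq promoter windows, 250 bases before to 50 after the start, 29.8% held a GATA motif and 13.6% held TATAAA, so neither is rare. Of the 20 called genes 15 had a window in the RefSeq table, and 5 of those held a GATA motif.

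The list of fetal and stress genes, written with earlier results of these data known, had 15 of 16 members above 0. Of them 9 were higher at an unadjusted p under 0.05 with the same direction in both tissues, against 5.25% of all genes, and 4 were called (Nppa, Nppb, Casq1 and Acta2). The 9 were 7 without the litter block, against 2.13%, and 9, 10 and 8 without pairs 1, 2 and 3, against 4.86%, 4.9% and 3.89%. Its median was 0.91, with 1.33 in atria and 0.82 in ventricles, beside -0.00 for all genes tested. Ankrd1, a stretch-responsive sarcomere protein gene, had a difference of 1.36 (SE 0.24, adjusted p = 0.0882) and was higher in all 6 pairs. Its ventricular signal was 27956, 14964 and 53036 in the knockout and 10192, 11161 and 8219.9 in the wild-type, with no overlap. Ctgf, the connective tissue growth factor, was likewise higher in all 6 pairs at 1.70 (SE 0.31, adjusted p = 0.0926). Myh7, the fetal ventricular myosin heavy chain, was at 0.86 in ventricles but -0.15 in atria and so did not count as shared.

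Other atrial markers were read in the ventricles beside Nppa, which is itself an atrial marker. Of the 11 on the atrial list 4 were above and 4 below 0 in both tissues, and the ventricular median was -0.02, so the members went both ways. In ventricles Sln, the atrial regulator of the calcium pump, had a signal of 249, 305 and 156 in the knockout and 267, 171 and 302 in the wild-type, with overlap. Mybphl, another atrial gene, was at 1.93, 25.5 and 2.61 and 17.9, 0 and 4.35. The atrial myosin light chain Myl4 was 0.89 higher in knockout ventricles on the log2 scale, above its littermate in all 3 pairs, against 2.70 for Nppa. Myl7, the other atrial light chain, differed by 0.83, 1.22 and -0.27 in ventricular pairs 1 to 3, and the potassium channel Kcna5 was lower in all 3, at -0.35, -0.32 and -0.32.

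**Figure D2:**
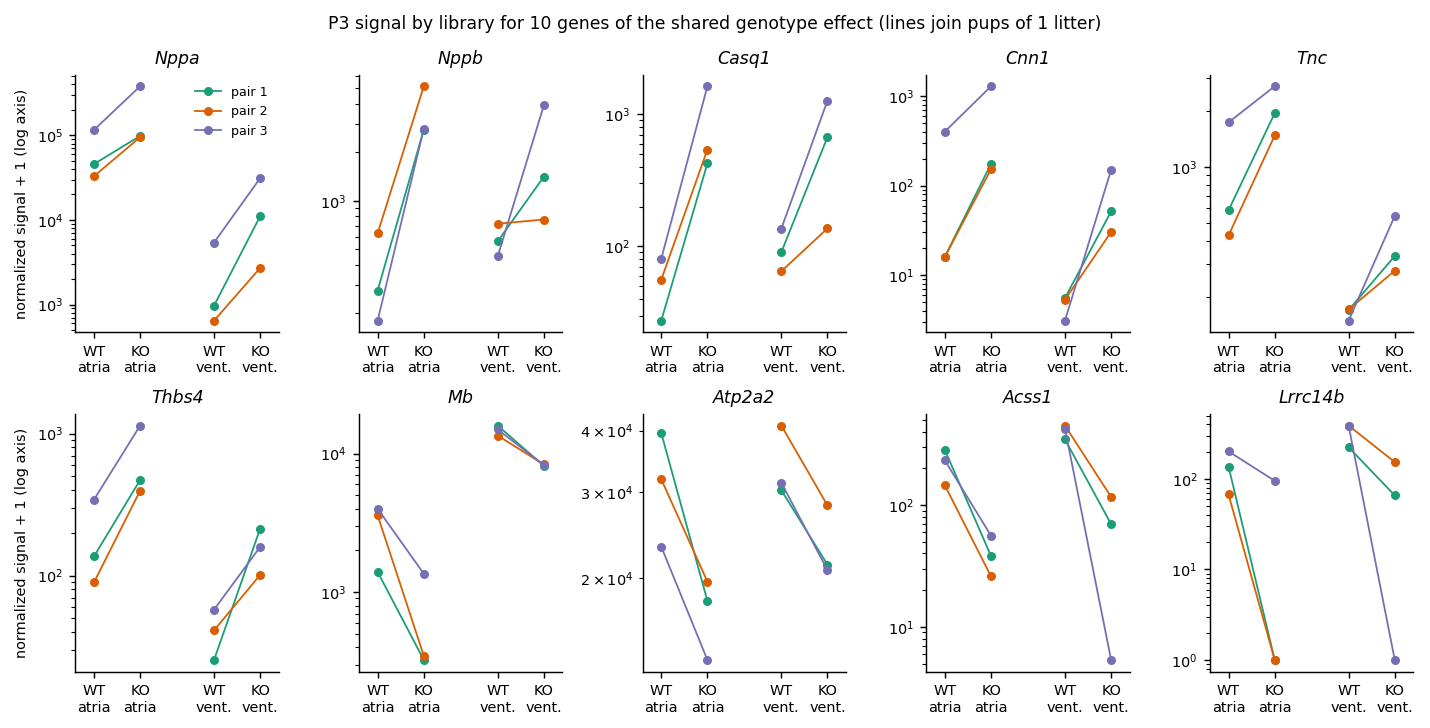
Normalized signal + 1 on a log axis for 10 of the called genes in each of the 12 libraries; lines join the wild-type and knockout pup of 1 litter. All lines of the 6 genes Nppa, Nppb, Casq1, Cnn1, Tnc and Thbs4 go up in both tissues, and all lines of Mb, Atp2a2, Acss1 and Lrrc14b go down.

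The calcium store of the sarcoplasmic reticulum showed a rise of its skeletal-muscle buffer and a fall of its pump. Casq1 encodes calsequestrin 1, the skeletal-muscle relative of calsequestrin 2, the cardiac form of this calcium-binding protein. Its signal was 424, 540.0 and 1628 in knockout atria and 26.4, 55 and 79.6 in wild-type atria. The ventricular signal was 671, 136 and 1268 in the knockout and 89.3, 63.8 and 135 in the wild-type. The genotypes did not overlap in either tissue, although knockout pup 2 was within 1 unit of wild-type pup 3 in ventricles. The difference of the pup means was 3.13 (SE 0.31, adjusted p = 0.00743), with 3.85 in atria and 2.40 in ventricles. Casq1 lies at chromosome 1, 172209894 to 172219868, where exons of the antisense gene Gm17224 overlap it.

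Atp2a2 encodes SERCA2, the pump that returns calcium to the sarcoplasmic reticulum after each beat. Its signal was 17965, 19669 and 13611 in knockout atria and 39562, 31832 and 23188 in wild-type atria. Ventricles had 21301, 28148 and 20767 in the knockout and 30236, 40971 and 31304 in the wild-type. No knockout library reached the lowest wild-type library of its tissue. The difference was -0.71 (SE 0.11, adjusted p = 0.0463); without pair 2 it was -0.75 with an adjusted p of 0.244.

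Of 20 calcium-handling genes 2 were higher and 6 lower at an unadjusted p under 0.05 with the same direction in both tissues, against 5.25% and 5.09% of all genes, and the list median was -0.07. Hrc, the histidine-rich calcium-binding protein of the same store, was lower in all 6 pairs at -1.04 (SE 0.20, adjusted p = 0.104). Its ventricular signal was 215, 236 and 229 in the knockout and 510.0, 523 and 456 in the wild-type, with no overlap. Trdn, which anchors calsequestrin to the release channel, was at -0.46 and Ryr2, the release channel, at -0.44, each lower in all 6 pairs (adjusted p = 0.165 and 0.219). Casq2, the cardiac calsequestrin, was at 0.31 (SE 0.13, adjusted p = 0.429).

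Among matrix genes of elastic fibres and of remodelling tissue, Tnc, Eln and Thbs4 rose. Tnc encodes tenascin C, a matrix glycoprotein that appears in developing and injured tissue. Its signal was 1939, 1472 and 2703 in knockout atria and 584, 428 and 1730.0 in wild-type atria, where wild-type pup 3 was above knockout pup 2. In ventricles the genotypes did not overlap, at 332, 277 and 545 in the knockout and 169.8, 171 and 149 in the wild-type. The difference was nearly equal in the 2 tissues, 1.38 in atria and 1.17 in ventricles, and 1.28 in the pup means (SE 0.16, adjusted p = 0.0217).

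Eln encodes elastin, the core of elastic fibres. Its signal was 8378, 7065 and 34714 in knockout atria and 1530.0, 4672 and 8956 in wild-type atria. Ventricular libraries stood at 2406, 2527 and 3573 in the knockout and 1501, 1487 and 2200.1 in the wild-type. The genotypes overlapped in atria, through wild-type pup 3, and not in ventricles. The difference was 1.19 (SE 0.16, adjusted p = 0.0307), with 1.67 in atria and 0.71 in ventricles. Exons of Tnc and of Eln overlap the antisense genes 8030451A03Rik and Gm30003.

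Thbs4 encodes thrombospondin 4, a matrix protein of stressed heart and tendon. Its signal was 471, 396 and 1139 in knockout atria against 135, 88.5 and 342, and 214, 100.2 and 158 in knockout ventricles against 24.5, 40.1 and 56.6. Neither tissue showed overlap. The difference was 1.92 (SE 0.27, adjusted p = 0.0327), 1.89 in atria and 1.95 in ventricles. Sost encodes sclerostin, a secreted inhibitor of Wnt signalling known from bone, and its signal was 717, 1113 and 370.3 in knockout atria and 51.1, 316 and 18.6 in wild-type atria. In ventricles Sost was at 144, 194 and 149 in the knockout and 33.9, 63.9 and 41.3 in the wild-type. The Sost difference was 2.55 (SE 0.32, adjusted p = 0.0217), with no overlap in either tissue.

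Of the 21 elastic-fibre and matricellular genes 16 were above 0 and 5 below. In this list 14 were higher and 3 lower at an unadjusted p under 0.05 with the same direction in both tissues, against 5.25% and 5.09% of all genes, and 10 were higher in all 6 pairs, which 3% of all genes were. Without the litter block 7 were higher and 2 lower, against 2.13% and 2.62%. Without pairs 1, 2 and 3 the higher members numbered 11, 13 and 11, against 4.86%, 4.9% and 3.89%, and the lower ones 1, 3 and 2, against 4.73%, 4.34% and 4.39%. The list median was 0.59, with 0.66 in atria and 0.48 in ventricles, and 2 members were called (Tnc and Eln). Fbln2, a fibulin that binds elastic fibres, was at 0.88 (SE 0.14, adjusted p = 0.0594). Mfap5, a microfibril protein that is also a fibroblast marker, went the other way at -0.95 (adjusted p = 0.111). Of 16 collagen chains 4 were higher and none lower with the litter block, against 5.25% and 5.09% of all genes. Their median was 0.16.

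The small proteoglycans lumican and decorin, which bind collagen fibrils, fell, mostly in atria. Lum had a signal of 541, 733 and 484 in knockout atria and 2665, 2328 and 1376 in wild-type atria, with no overlap. In ventricles Lum was at 1677, 1834 and 1305 and 1765, 2195 and 2324, with overlap. The Lum difference was -1.11 (SE 0.13, adjusted p = 0.0217), made of -1.82 in atria and -0.39 in ventricles.
Dcn behaved likewise, at -0.79 (SE 0.12, adjusted p = 0.0463). Its signal was 1480.1, 1878 and 2292 in knockout atria against 4540.2, 5011 and 5772, without overlap, and 3590.0, 4392 and 3125 in knockout ventricles against 3638, 4112 and 4199. Its ventricular difference of -0.12 was within its SE of 0.14, and an unadjusted p of 0.000346 set it apart from the atrial -1.45, so its shared direction rests on the atria. Biglycan (Bgn), of the same family, was at 0.67 (adjusted p = 0.154), higher in all 6 pairs.
Over 11 fibroblast markers 4 were above 0 and 7 below. Their median was -0.76 in atria and 0.15 in ventricles, and their summed signal was 44936, 49314 and 38687 in knockout atria against 62711, 68097 and 49099. In bulk tissue, fewer cells of a type and less RNA per cell cannot be told apart.

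Among 9 markers of smooth muscle and pericytes, Acta2 and Cnn1 rose. Acta2 encodes smooth muscle actin, which immature heart muscle also makes. Its signal was 3244, 3539 and 7065 in knockout atria and 662, 1591 and 2414 in wild-type atria, and the 2 genotypes did not overlap. The values in ventricles were 3599, 1951 and 3989 in the knockout and 1759, 1825 and 1723 in the wild-type, where knockout pup 2 was barely above the wild-type libraries. The difference was 1.22 (SE 0.18, adjusted p = 0.0463), with 1.66 in atria and 0.78 in ventricles.
Cnn1, the actin-binding protein calponin 1, had a signal of 175, 152 and 1288 in knockout atria and 15.1, 15 and 400.5 in wild-type atria. In ventricles it was 50.5, 29.4 and 149 in the knockout and 4.55, 4.32 and 2.11 in the wild-type, a low level with no overlap. In atria wild-type pup 3 lay above knockout pups 1 and 2. The Cnn1 difference was 3.29 (SE 0.42, adjusted p = 0.0217). Tagln, transgelin, stood at 1.35 (adjusted p = 0.0809).
Of the other 6 markers none was higher at an unadjusted p under 0.05 with the same direction in both tissues. Myh11, the smooth muscle myosin heavy chain, had a signal of 1.12, 0 and 28.7 in knockout atria and 17.7, 148 and 720.4 in wild-type atria. In ventricles Myh11 was at 0.38, so the tissues had opposite signs. The pericyte marker Rgs5 was at -0.43. The summed signal of the 9 markers was 5600.0, 5865 and 12254 in knockout atria against 1747, 3659 and 6687, and 5794, 3699 and 6291 in knockout ventricles against 4001, 3979.6 and 4369.

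Globin transcripts rose as well. Hba-a2, an adult alpha-globin gene, had a signal of 16406, 21381 and 73456 in knockout atria and 8281, 7693 and 10058 in wild-type atria. The ventricular signal was 12928, 9136 and 16194 in the knockout and 5388, 8318 and 11993 in the wild-type, with overlap. The differences were 1.19 for Hba-a2 (SE 0.15), 1.24 for Hba-a1 (SE 0.17) and 0.93 for Hbb-bs (SE 0.13), at adjusted p values of 0.0217, 0.0296 and 0.0322. The alpha genes are near-identical copies and the adult beta genes nearly so, so the split of reads between copies is uncertain. All 7 erythroid markers tested were above 0, with a median of 1.78 in atria and 0.58 in ventricles. Their summed signal was 31054, 41632 and 133128 in knockout atria against 15919, 15580.2 and 18811, and 22802, 17648 and 30925 in knockout ventricles against 10360.1, 16634 and 25487. Whether blood in the tissue differed was not tested. Without pair 2 the differences were 1.39 for Hba-a2, 1.43 for Hba-a1 and 1.06 for Hbb-bs, larger than with it, but their adjusted p values of 0.0501, 0.0501 and 0.0893 missed the threshold.

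Gm2897, a predicted gene of a multicopy family on chromosome 14, was called at 3.59 (SE 0.51, adjusted p = 0.0355). Its signal was 78.6, 388 and 57.5 in knockout atria and 0, 188 and 69.5 in wild-type atria, and 12.6, 90.5 and 184 and 9.41, 0 and 0 in ventricles. It is listed at 0 in 3 wild-type libraries, its levels overlapped in atria, and reads can be shared with its copies, so its value is uncertain.

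Mb and Acss1, genes of oxygen and acetate use, fell. Mb encodes myoglobin, the oxygen store of muscle. Its signal was 323, 346 and 1357 in knockout atria and 1400.1, 3585 and 3998 in wild-type atria. Ventricles had 8161, 8345 and 8269 in the knockout and 15946, 13500.0 and 14951 in the wild-type. No knockout library reached any wild-type library of its tissue. The difference was -1.59 (SE 0.16, adjusted p = 0.00743), larger in atria (-2.35) than in ventricles (-0.84; unadjusted p = 0.00177 for the difference). Mb lies at chromosome 15, 77015487 to 77050670 and its exons overlap those of Apol6 and Gm49540 on the other strand.

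Acss1 encodes the mitochondrial acetyl-CoA synthetase, which lets muscle burn acetate. Its signal was 37, 24.9 and 54.8 in knockout atria and 281, 144 and 231 in wild-type atria. Ventricular libraries stood at 68.5, 115 and 4.35 in the knockout and 344, 447 and 422 in the wild-type. The genotypes were fully apart in both tissues, and the difference was -3.00 (SE 0.39, adjusted p = 0.0265). Acss1 lies at chromosome 2, 150618105 to 150668500, with exons of E130215H24Rik on the other strand.

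Paqr9, a membrane receptor gene of the progestin and adipoQ family, had a signal of 75.8, 40.9 and 102 in knockout atria and 416, 246 and 176 in wild-type atria. The values in ventricles were 105, 208 and 73.2 and 353, 366 and 439. No library overlapped, and the difference was -1.82 (SE 0.24, adjusted p = 0.0276), nearly equal in atria (-1.93) and ventricles (-1.71).

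Lrrc14b, a leucine-rich repeat gene, fell by 4.33 on the log2 scale (SE 0.43, adjusted p = 0.00743), a size that depends on the pseudocount of 1. The difference was -2.68 with a pseudocount of 10 and -2.20 with tissues averaged on the linear scale, where Acss1 was at -2.67. The Lrrc14b signal was 136, 66.4 and 201 in wild-type atria and 223, 388 and 387 in wild-type ventricles. In the knockout it was 0, 0 and 94.5 in atria and 64.8, 152 and 0 in ventricles, so it is listed at 0 in 3 of 6 libraries. The libraries at 0 differ between the tissues, pups 1 and 2 in atria and pup 3 in ventricles, and in atria knockout pup 3 lay above wild-type pup 2. Exons of Ccdc127 overlap it on the other strand.

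Genes of fatty acid uptake and oxidation were lower together, without any of them passing the adjusted threshold. All 29 tested members of the list were below 0 in the pup means, and 25 were below 0 in both tissues, as were 27.5% of all genes. At an unadjusted p under 0.05, 22 of 29 were lower with the same direction in both tissues, against 5.09% of all genes. The list median was -0.51, with -0.44 in atria and -0.56 in ventricles. The count was 9 without the litter block, against 2.62% of all genes, and 16, 17 and 18 without pairs 1, 2 and 3, against 4.73%, 4.34% and 4.39%.
Lpl, the lipase that frees fatty acids from circulating lipoproteins, was nearest to the threshold at -0.70 (SE 0.11, adjusted p = 0.0552). Its ventricular signal was 11553, 12317 and 12102 in the knockout and 16156, 18409 and 18830.0 in the wild-type, with no overlap. Its atrial signal was 5244, 5534 and 2098 and 10625, 10593 and 3033, where pair 3 was lower than the other pairs in both genotypes.
Hadh, a dehydrogenase of beta-oxidation, was at -0.78 in the pup means (SE 0.15, adjusted p = 0.0934) and -0.78 and -0.78 in atria and ventricles. Cd36, the fatty acid transporter of the muscle membrane, was at -0.54 (SE 0.11, adjusted p = 0.104). Lpl, Hadh and Cd36 were lower in all 6 pairs, as were 8 members of the list in all, against 2.98% of all genes.

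The regulators of this programme gave a smaller count. The PPAR, PGC1 and ERR group held 14 genes, with a median of -0.30. At an unadjusted p under 0.05 with the same direction in both tissues 3 were lower and none higher. The shares of all genes were 5.09% and 5.25%. Perm1, a muscle-specific coregulator of oxidative metabolism, was at -1.21 (SE 0.31, adjusted p = 0.188) and lower in all 6 pairs. Ppargc1a, the PGC-1 alpha coactivator, was at -0.37 (adjusted p = 0.368). Of 20 glycolysis and lactate genes 5 were higher and 3 lower by the same count, against 5.25% and 5.09% of all genes. The enolases went opposite ways: Eno1, the ubiquitous form, was at 0.72 (adjusted p = 0.129) and Eno3, the muscle form, at -0.56 (adjusted p = 0.208).

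**Figure D3:**
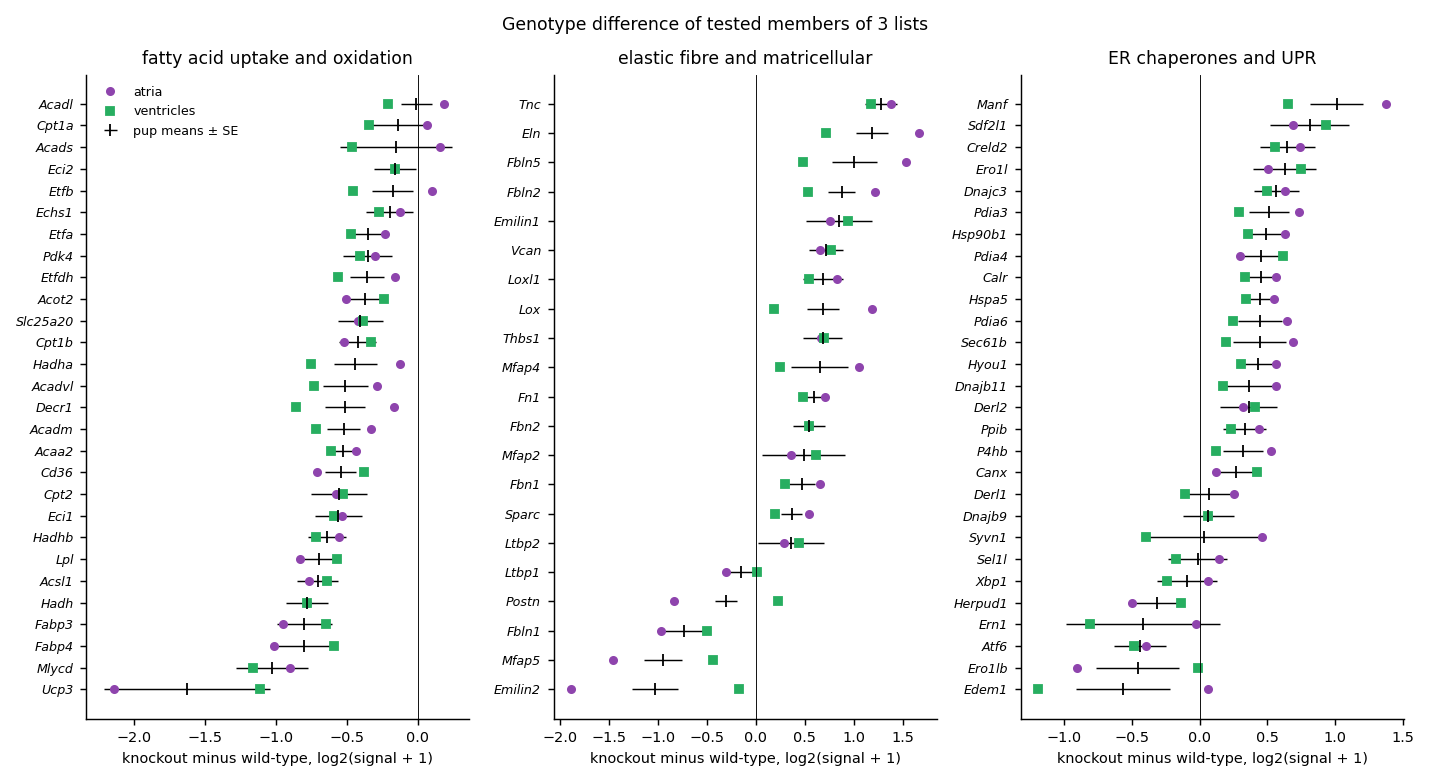
Difference of log2(signal + 1), knockout minus wild-type, for tested members of 3 lists (28 of 29, 21 of 21 and 28 of 28 genes): ticks with bars are pup means ± SE, circles are atria and squares ventricles. All 28 plotted members of the fatty acid list have a pup mean below 0, while 16 of 21 and 21 of 28 members of the other lists lie above 0.

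Mitochondrially encoded transcripts were lower too. All 15 were below 0 in both tissues and 13 in all 6 pairs, and all 15 had an unadjusted p under 0.05 with the litter block, against 5.09% of all genes. Their median was -0.54, with -0.78 in atria and -0.29 in ventricles, and none was called. mt-Co1, a core subunit of cytochrome oxidase, had a signal of 396329, 373814 and 362828 in knockout ventricles and 495036, 511518 and 414105 in wild-type ventricles, with no overlap. In atria mt-Co1 was at 172324, 158024 and 28987 in the knockout and 278507, 255843 and 101810.0 in the wild-type, with pair 3 below the others in both genotypes. The mt-Co1 difference was -0.69 (SE 0.13, adjusted p = 0.0974). Without the block 0 of 15 had an unadjusted p under 0.05. Without pair 1 the count was 4 and without pair 2 it was 10, while without pair 3, the atrial pair with the low mitochondrial share, all 15 remained under 0.05 and 9 were called. Of all genes 4.73%, 4.34% and 4.39% were lower without pairs 1, 2 and 3, and 0.113% were called without pair 3. Of 36 nuclear genes of respiratory complex I 26 were below 0. At an unadjusted p under 0.05 with the same direction in both tissues 2 were lower and none higher. The shares of all genes were 5.09% and 5.25%, so the count of 2 was near the general share. Of 42 genes of complexes II to V 30 were below 0, and 3 were lower and 2 higher by the same count, also near those shares. Their medians had opposite signs in the tissues, 0.07 and 0.10 in atria against -0.21 and -0.24 in ventricles.

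Chaperones of the endoplasmic reticulum, the compartment in which CRELD1 lies, were higher in many members. Of 28 tested genes 21 were above 0. At an unadjusted p under 0.05 with the same direction in both tissues 13 were higher and 1 (Atf6) lower. The shares of all genes were 5.25% and 5.09%. In all 6 pairs 10 were higher, against 3% of all genes. The median was 0.37, with 0.48 in atria and 0.24 in ventricles, and none was called. The count of 13 was 5 without the block, against 2.13% of all genes, and 8, 11 and 9 without pairs 1, 2 and 3, against 4.86%, 4.9% and 3.89%.
Manf, a secreted protein of the stressed reticulum, was at 1.01 (SE 0.20, adjusted p = 0.103). Its signal was 792, 653 and 1037 in knockout atria and 285, 387 and 274 in wild-type atria, without overlap, and 635, 405 and 522 and 444, 280.0 and 279.6 in ventricles, with overlap. Hsp90b1 (GRP94) was at 0.49 (SE 0.11, adjusted p = 0.139) and Hspa5 (BiP), the main chaperone of the compartment, at 0.45 (SE 0.12, adjusted p = 0.216). Pdia3, a disulfide isomerase, was at 0.51 (adjusted p = 0.234).
Creld2, the soluble relative of CRELD1 and a stress-induced protein of the same compartment, was at 0.65 (SE 0.20, adjusted p = 0.269). Its signal was 596, 499 and 328 in knockout atria and 267, 232 and 336 in wild-type atria. In ventricles it was 299.7, 210.2 and 465 and 191, 257 and 187. Knockout pup 2 in ventricles and pup 3 in atria lay below their littermates, and the genotypes overlapped in both tissues. Among the sensors and transcription factors of the response, Atf6 was at -0.44, Xbp1 at -0.09 and Ern1 at -0.42. Atf4, from the separate list of the integrated stress response, was higher in all 6 pairs. Its paired differences were 0.74, 0.43 and 0.67 in atria and 0.04, 0.25 and 0.15 in ventricles. Of 17 tested members that list had 10 above and 7 below 0.

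Several members of this list carry the same promoter element. The endoplasmic reticulum stress element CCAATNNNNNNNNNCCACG, searched on both strands, is known as a site through which ATF6 and NF-Y act. It was found in 39 of 32851 RefSeq promoter windows (0.119%) and in 9 of the 24 windows (37.5%) that the table holds for 23 of the 30 listed genes. The windows of the 15 called genes found there held none. The 6 genes shown carry the element in capitals, as CCAAT followed by CCACG or as its reverse complement, with 10 bases on each side, and the stretch for Hsp90b1 spans 2 elements.
Hspa5: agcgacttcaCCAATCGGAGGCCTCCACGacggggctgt
Hsp90b1: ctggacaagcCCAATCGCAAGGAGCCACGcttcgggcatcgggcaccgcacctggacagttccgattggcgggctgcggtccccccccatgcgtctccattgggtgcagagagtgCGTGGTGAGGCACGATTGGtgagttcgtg
Calr: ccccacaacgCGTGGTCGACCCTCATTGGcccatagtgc
Creld2: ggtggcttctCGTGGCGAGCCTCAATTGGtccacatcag
Pdia6: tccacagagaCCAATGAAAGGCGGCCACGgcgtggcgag
Dnajc3: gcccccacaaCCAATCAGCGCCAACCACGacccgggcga
They lie in GRCm38.p6 at chr2:34772015-34772053 (plus strand), chr10:86705523-86705666 (minus), chr8:84847065-84847103 (minus), chr15:88819510-88819548 (plus), chr12:17266481-17266519 (plus) and chr14:118937817-118937855 (plus), each written on the gene's strand. The differences of these genes were 0.45, 0.49, 0.45, 0.65, 0.45 and 0.57, in the order shown. Those of Canx and Syvn1, which also carry the element, were 0.27 and 0.03, and Derl3, the ninth, was below the filter. A match of letters is a description and not evidence of binding.

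Most ion channel, connexin and conduction genes had a pup mean below 0. Of 25 tested 22 were below 0, and 8 were lower and none higher at an unadjusted p under 0.05 with the same direction in both tissues, against 5.09% and 5.25% of all genes. None was called. The 8 were 6 without the litter block, against 2.62%, and 8, 5 and 5 without pairs 1, 2 and 3, against 4.73%, 4.34% and 4.39%. Their median was -0.67, with -1.0 in atria and -0.38 in ventricles. Kcnip2, the subunit that assembles the transient outward potassium current, was at -1.82 (SE 0.42, adjusted p = 0.147), with a ventricular signal of 33.8, 92.9 and 22.6 in the knockout and 151, 141 and 107 in the wild-type. Kcnd2, a pore subunit of the same current, was at -3.51 (SE 0.81, adjusted p = 0.147). Both were lower in all 6 pairs. The Kcnd2 differences were -1.14, -1.52 and -5.34 in atrial and -6.34, -0.55 and -6.14 in ventricular pairs 1 to 3. The Kcnd2 mean of knockout pup 3 was 0.36 on the log2 scale, near 0, so the size of its difference is uncertain.

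**Figure D4:**
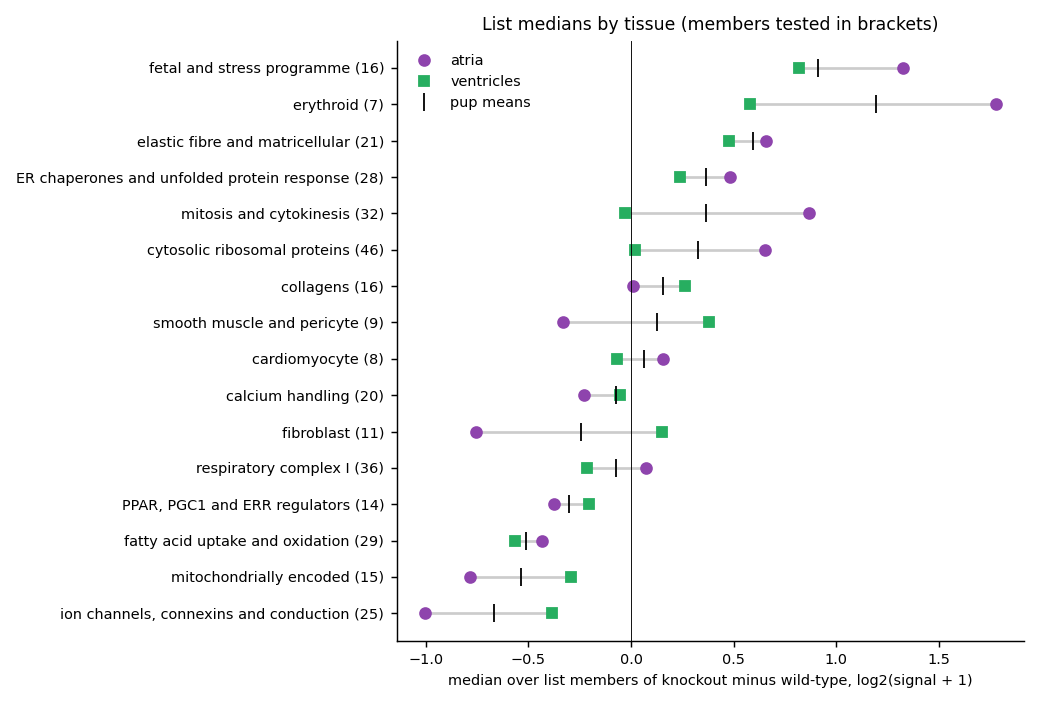
Median over list members of the knockout minus wild-type difference of log2(signal + 1) for 16 lists, with atria as circles, ventricles as squares and pup means as ticks. The fatty acid list has nearly equal medians in the 2 tissues (-0.44 and -0.56), while the mitosis and ribosomal lists have medians near 0 in ventricles (-0.03 and 0.02) against 0.87 and 0.65 in atria.

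Some lists that were higher in the pup means owed this to the atria. Of 46 cytosolic ribosomal protein genes all were above 0. At an unadjusted p under 0.05 with the same direction in both tissues 19 were higher, against 5.25% of all genes. Their median was 0.65 in atria but 0.02 in ventricles. In the pup means it was 0.33, and it became 0.37, 0.39 and 0.22 without pairs 1, 2 and 3. Of 32 mitosis and cytokinesis genes 28 were above 0 and 7 passed the same count, against 5.25% of all genes. Their medians were 0.87 in atria and -0.03 in ventricles. In the pup means the mitosis median was 0.37, and it became 0.30, 0.44 and 0.43 without pairs 1, 2 and 3. The mitotic genes with the same direction in both tissues included Top2a, the DNA topoisomerase of dividing cells, at 0.87 in atria and 0.18 in ventricles.

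The size of the effect also differed between tissues among the called genes, 12 of which had an unadjusted p under 0.05 for the difference, against 7.04% of all genes. Over all 16825 genes limma called 1 difference (0.00594%), Mest, an imprinted fetal growth gene. Its signal was 9463, 13529.6 and 12112 in knockout atria and 2405, 3004 and 2306 in wild-type atria, and 2645, 1941 and 2292 and 2706, 2727 and 3125 in ventricles. Its pup means passed the threshold (0.93, adjusted p = 0.0217), as those of 0.125% of genes did when direction was not considered, but with 2.18 in atria and -0.32 in ventricles it is not a shared effect. The ventricular minus the atrial effect was -2.50 (SE 0.25, adjusted p = 0.0386). Tissue by tissue, paired limma called 3 genes higher and none lower in atria (0.0178%; Nppb, Casq1 and Mest) and none in ventricles, where 1116 genes (6.63%) had an unadjusted p under 0.05. The smallest adjusted p in ventricles was 0.506.

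The same contrast in E13.5 hearts, tested as 4 numbered pairs, gave no call among 14922 genes (smallest adjusted p 0.998), and 677 genes (4.54%) had an unadjusted p under 0.05. Pairs 2 and 3 of these embryos came from 1 litter, so the 4 pairs are 3 litters. With litter as the block, added after seeing the data, no gene was called either (smallest adjusted p 0.997) and 660 genes (4.42%) had an unadjusted p under 0.05. Of the 20 genes called at P3, 19 were tested there and 10 had the same sign, while 50.8% of all genes were above 0 in that contrast. None of the 10 had an unadjusted p under 0.05 with either block. Nppa stood at -0.13 (SE 0.21), Nppb at -0.34 (SE 0.23), Casq1 at -0.15 (SE 0.26) and Mb at 0.16 (SE 0.25) at E13.5, while Tnc was at 0.59 (SE 0.31). The fatty acid list had 19 members above and 9 below 0 at E13.5, with a median of 0.13, and the chaperone list 14 above and 14 below. The difference between the stages was not tested, since whole hearts at E13.5 and dissected chambers at P3 differ in dissection as well as in age.

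**Figure D5:**
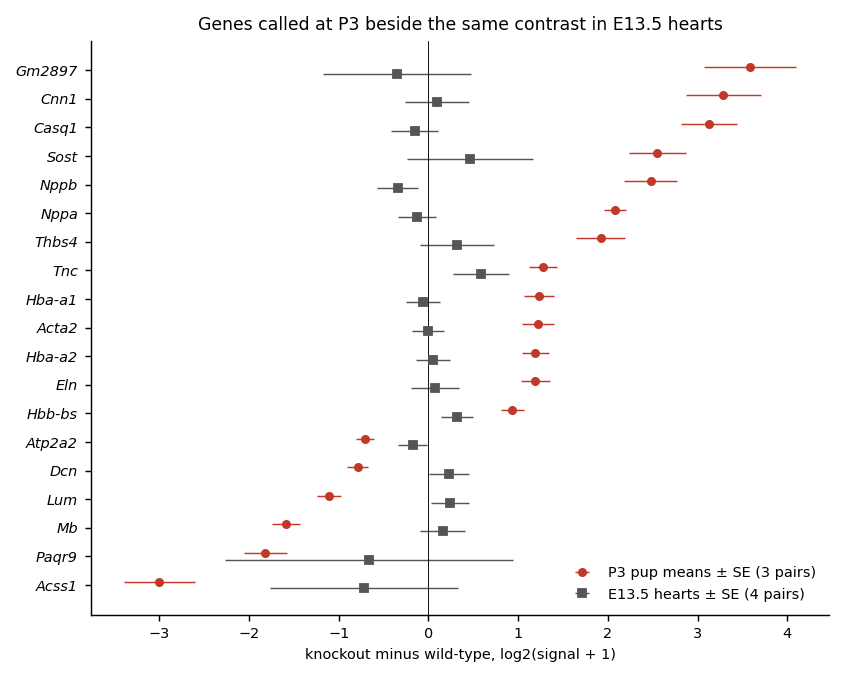
Knockout minus wild-type difference of log2(signal + 1) ± SE for the 19 genes called at P3 that were also tested at E13.5; circles are P3 pup means (3 pairs) and squares E13.5 whole hearts (4 pairs). The P3 values lie between -3.00 (Acss1) and 3.59 (Gm2897), while 10 of the 19 have the same sign at E13.5.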

How the data were processed

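The authors deposited 1 table of normalized signal, on a linear scale, for 26440 genes in 20 libraries. The scaling is not stated in the labels. Per the submitters' processing notes, bcl2fastq 2.2, STAR 2.5.1, DESeq2 and the build mm10 were used, with no role or order given. No source names the counting tool or the annotation. Among low P3 values (at most 100 estimated counts), 45.1 to 64.6% came out whole at a tolerance of 0.001, so counts were not recovered and depth is an estimate. The estimate can include PCR copies, since these carry no molecular identifiers. Every sample column was mapped.

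The members and gene lists (41) were chosen with earlier results of these data known. Values were analysed as log2(signal + 1) in R 4.3.3 with limma 3.58.1. For genes with libraries near 0 the size of a difference depends on the pseudocount. Gm2897 was at 3.59 with a pseudocount of 1, 4.08 with 0.5 and 1.96 with 10. The fit used 6 pup means, litter number as a block, a variance trend, 2 residual and 7.91 prior degrees of freedom, two-sided tests and Benjamini-Hochberg adjustment over 16825 genes. With 3 pairs an exact sign-flip test of a single gene cannot go below p = 0.25. Numbers pair the pups because the labels give same-numbered pups 1 litter and preparation date. In deviations from the group means, same-numbered pup means correlated at r = 0.114, 0.164 and 0.395 and differently numbered ones at -0.259 to 0.123. In ventricles same-numbered libraries reached 0.0158 to 0.066. These values set pair 3 apart but not pairs 1 and 2, so the pairing rests on the labels. Tissues were tested likewise, as was each pup's ventricle minus atrium difference. The E13.5 contrast was added after the data had been seen.

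Named genes were Creld1, Creld2, up to 12 called genes per direction at or above the median level and neither sex-linked nor named as a clone or predicted gene, and the 2 to 4 members of each list with the smallest unadjusted p among those with the same direction in both tissues. Cnn1, Lrrc14b, Gm2897, Mest, Ankrd1, Ctgf, Myh7, Myh11, Sln, Mybphl and Casq2, the chaperone genes printed for their promoter, and the response factors Xbp1, Atf6 and Ern1 fall outside that rule and were named after their values were seen. The result of 1 gene that the rule names is not reported here, and the gene stays in the counts and medians of its list. Positions are from GENCODE M21 and promoters from RefSeq, both GRCm38. The fit was run on simulated data, drawn with the spread that the fit itself estimates, to check the code. Such data cannot show whether the trend or the block suits the real libraries. Alternatives covered pseudocount, filter, scaling, block, trend and left-out pups.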

Additional observations from a re-analysis of the deposited data

Results flagged for a closer look

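Results of 2 kinds stood out, and chance alone would mark about 1 group in 20 for the first kind. In the E13.5 hearts, single embryos lay far from the others of their genotype for 3 of the genes called at P3. Dcn was at 1688 in a knockout heart, against 1000.2 to 1013 in the other 3. Lrrc14b was at 77.0 in a knockout heart and 68.0 in a wild-type heart, and listed at 0 or at 7.76 in the other 6. Paqr9 was at 12.9 in a knockout heart against 0 to 1.97 in the others. The second kind is a tissue difference that passed its test: the ventricular minus the atrial knockout effect on Mest was -2.50 on the log2 scale (limma adjusted p = 0.0386).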

How the results depend on the processing

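All 20 called genes kept their sign under each setting in which they were tested, but the number called moved widely. The settings reuse the same pups, so the kept signs lend the calls no further support. Of 26 settings, Nppa lost its call in 4, the fewest, and Dcn in 22, the most. The counts of genes that rose and fell were 13 and 7. They became 25 and 13 with a pseudocount of 10, 2 and 2 with no filter, 42 and 25 with a filter of 10 in 11 of 12 libraries, and 0 and 0 without the variance trend. With tissues averaged on the linear scale 17 genes fell, and with all 12 libraries fitted separately and the litter number as a replicate block 11 fell. Without the replicate block they were 0 and 1, and 0 and 0 with log2 Xist as a covariate and no replicate block. Leaving out 1 pair gave 4 to 74 risen and 3 to 60 fallen genes. Leaving out 1 library from the 12-library fit, an alternative chosen after seeing the data, gave 0 to 15 risen and 0 to 10 fallen genes, with 8 risen without the atria of wild-type pup 3.

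In atria the 3 genes that rose became 0 without the replicate block or the filter and 13 with a pseudocount of 10, when 3 fell. Leaving out a pair gave 0 to 34 risen and 0 to 18 fallen. In ventricles the counts of 0 became 4 risen and 1 fallen when only genes above 0 in that tissue were fitted, added after seeing the data, and stayed at 0 in the other settings. The tissue difference called for 1 gene, Mest, was 0 without the replicate block, with a pseudocount of 0.5 or with no filter, and leaving out a pair gave 0 to 2 in each direction. The cause of these shifts was not tested.

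With 3 pups per genotype, 1 pair with a doubtful label and 1 with differing Xist, calls near the threshold are not firm. Signals near 0 are uncertain because depth is an estimate. Counting error, pup, litter and dissection cannot be separated beyond the litter block.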
